A study of Mus musculus with 6 samples.

Results

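Interferon-stimulated genes are the genes that a cell switches on when interferon reaches it. A set of 33 of them was followed here in whole liver of FRG mice, and a member was measured where a probe set of the array carried its symbol alone. This held for 31 of the 33 genes, among 18193 genes with such a probe set in all, and the brightest probe set of a gene, by its mean on the log2 scale, stood for the gene. Expression of Isg15 and Ifi44 was not analysed here. All mice carried deletions of Fah, Rag2 and Il2rg (FRG) on a C57Bl/6J background, were male and 12 weeks old, and ate a chow low in tyrosine and phenylalanine. The 3 FRG-7dNTBC mice had been without nitisinone (NTBC), the drug that keeps Fah-deficient animals alive, for 7 days. The 3 FRG+NTBC mice went on drinking 16 mg/L NTBC. Loss of Rag2 and Il2rg leaves the mice without mature T, B and NK cells, so the main lymphoid sources of interferon gamma are missing in both groups.

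Type I interferons (alpha and beta) are made when sensors such as RIG-I and MDA5 meet viral RNA or misplaced RNA of the cell itself. They bind a receptor that most cells carry and activate a complex with STAT2 and IRF9, which binds interferon-stimulated response elements. Interferon gamma has a receptor of its own and acts mainly at another element, the gamma-activated site, and through IRF1. In the liver, hepatocytes and Kupffer cells both respond to these signals. Of the measured members, 25 are known mainly as type I targets and 6 (Irf1, Gbp2, Gbp3, Igtp, Iigp1 and Irgm1) mainly as interferon gamma targets, although many answer to both.

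Each mouse gave 1 Affymetrix array, and the values are intensities on a linear scale from 3.84 to 29532, with medians of 33.1 to 34.3 in FRG-7dNTBC and 35.3 to 36.5 in FRG+NTBC livers. Rag2, which the mice lack, read 20.1 ± 1.85 in FRG-7dNTBC and 20.1 ± 3.21 in FRG+NTBC livers (SD, n = 3 each), and members near this level have no exact fold change. Fah, which the mice also lack, read 95.5 ± 20.2 in FRG-7dNTBC and 198 ± 16.5 in FRG+NTBC livers (adjusted p = 0.00258 from limma). Whether the probes of Rag2 and Fah lie inside the deleted parts is not known, so the level of Rag2 is only a rough guide to the background. Hepatocyte markers summed to 75848 to 76920 in FRG-7dNTBC and 76792 to 79693 in FRG+NTBC livers. This sum was carried by Alb, Ttr and Apoa1, which lay near the top of the scale, while the fourth marker, the tyrosine-degrading enzyme gene Tat, read 742 ± 259.5 in FRG-7dNTBC and 2690 ± 306 in FRG+NTBC livers and fell by 1.92 (adjusted p = 0.00151). The 8 markers of Kupffer cells and macrophages summed to 3753, 2258 and 5802 in FRG-7dNTBC livers, against 1794, 2160 and 2795 in FRG+NTBC livers, and 4 of them (Vsig4, Cd5l, Timd4 and Cd68) were higher. T cell markers summed to 237 to 253 in FRG-7dNTBC and 252 to 283 in FRG+NTBC livers. NK cell markers summed to 163 to 420.2 in FRG-7dNTBC and 72.7 to 84.2 in FRG+NTBC livers, and the only one of 4 that passed was Eomes, while the NK receptor gene Ncr1 lay below Rag2, at 10.3 in FRG-7dNTBC and 10.5 in FRG+NTBC livers. Markers of plasmacytoid dendritic cells, the professional makers of type I interferon, summed to 611 to 1215 in FRG-7dNTBC and 244 to 259 in FRG+NTBC livers through Ly6d alone, with Siglech, their defining marker, at 28.3 in FRG-7dNTBC and 32.9 in FRG+NTBC livers. The part of these markers in the results on the members was not tested.

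The response element can be read in the start regions of some of the members themselves. Promoters are shown for the 4 members with the largest changes past the threshold among those in the promoter set used (RefSeq, GRCm38.p6). Mx1, Dhx58 and Parp14 were not in this set. Each printed promoter runs on the gene's strand from 250 bases before the transcription start to the 50 bases that begin with it. Capitals mark the core of the response element, GAAANNGAAA, wherever it matched on either strand. In Ifit1 it matched in 2 places, at bases 104 and 85 before the start. In Irgm1 2 matches overlapped, at bases 30 and 24 before the start. Ifih1 and Ddx58 had 1 match each, behind the start, at bases 33 and 3 counted from the start as 1.
Ifit1, chr19:34640639-34640938, plus strand: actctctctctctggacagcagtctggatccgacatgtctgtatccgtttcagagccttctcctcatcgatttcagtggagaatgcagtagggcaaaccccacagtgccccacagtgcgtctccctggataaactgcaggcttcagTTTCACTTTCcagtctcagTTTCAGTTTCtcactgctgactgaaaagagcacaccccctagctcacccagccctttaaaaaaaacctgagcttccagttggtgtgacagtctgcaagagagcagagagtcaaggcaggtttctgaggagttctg
Ifih1, chr2:62646206-62646505, minus strand: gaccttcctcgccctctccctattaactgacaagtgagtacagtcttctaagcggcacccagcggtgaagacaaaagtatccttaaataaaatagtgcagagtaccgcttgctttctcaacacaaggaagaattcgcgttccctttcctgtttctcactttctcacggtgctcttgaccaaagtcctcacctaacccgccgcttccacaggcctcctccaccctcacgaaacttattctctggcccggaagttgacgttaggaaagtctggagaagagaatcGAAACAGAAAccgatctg
Irgm1, chr11:48871371-48871670, minus strand: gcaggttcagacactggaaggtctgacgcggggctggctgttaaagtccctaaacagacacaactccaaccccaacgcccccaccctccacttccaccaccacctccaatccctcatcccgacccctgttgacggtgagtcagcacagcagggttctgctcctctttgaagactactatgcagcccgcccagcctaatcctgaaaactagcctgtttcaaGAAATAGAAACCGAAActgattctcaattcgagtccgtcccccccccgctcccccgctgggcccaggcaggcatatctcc
Ddx58, chr4:40239776-40240075, minus strand: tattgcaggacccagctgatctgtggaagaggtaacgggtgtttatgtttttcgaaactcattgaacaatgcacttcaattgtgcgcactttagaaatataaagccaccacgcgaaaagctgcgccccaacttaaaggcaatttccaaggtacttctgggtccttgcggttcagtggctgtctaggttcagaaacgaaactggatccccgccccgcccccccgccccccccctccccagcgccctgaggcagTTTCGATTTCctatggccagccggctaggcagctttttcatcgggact
Of 24 listed members with a promoter in the same source, Isg15 and Ifi44 included, 15 held the core, against 3.44% of all 32851 promoters. It stood in 11 of 19 type I-type and 4 of 5 gamma-type promoters. Among members that were lower in FRG-7dNTBC livers 3 of 5 promoters held it, and those of Irf7 and Irf9 did not. Among members that did not pass the test 10 of 16 held it. These promoters are too few to tell whether the core goes with the calls, which was not tested. The gamma-activated site, TTCNNNGAA, matched in 5 of the 24 promoters, against 8.30% of all, and in none of the 4 printed here. A match is a run of letters, and binding was not measured.

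The members moved in both directions, and the type I-type genes that passed were mostly lower after NTBC withdrawal. Of the 31 genes, 7 fell (Ifit1, Dhx58, Ifih1, Ddx58, Irf7, Irf9 and Parp14), 2 rose (Mx1 and Irgm1) and 22 did not pass limma at an adjusted p under 0.05, where p-values were adjusted over all 45037 probe sets. Lower members made up 22.6%, against 12.7% of all 18193 genes. Higher members made up 6.45%, against 17.4% of all genes. The 11976 genes with a mean log2 value of at least 5, which include 28 members, had 17.5% lower and 25.5% higher once dimmer probe sets were left out. With the arrays scaled to one 75th percentile 19.6% of all genes were lower, and Stat2 joined the 7 lower members (adjusted p = 0.027). Over all probe sets, 14.0% were higher and 13.9% lower. Values of both groups did not overlap in 4 members that were higher and 7 that were lower, where 22.8% and 23.4% of all genes did the same. The median log2 fold change, in which a positive value means higher in FRG-7dNTBC livers, was -0.02 over the members, with a range of -1.41 to 2.04, and -0.05 over all genes. In whole liver, fewer cells of a type and less RNA per cell cannot be told apart. The 7 lower calls became 2 without FRG+NTBC replicate 2, 2 without FRG+NTBC replicate 3 and 4 when FRG-7dNTBC replicate 1 was left out, where 8.11%, 9.67% and 8.98% of all genes were lower. The 2 higher calls became 1 without FRG+NTBC replicate 1, FRG+NTBC replicate 2, FRG-7dNTBC replicate 1 or FRG-7dNTBC replicate 3. The mice are separate animals, and with 3 against 3 no exact permutation test of 1 gene can reach below 0.1, so all calls rest on limma's model of the spread.

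**Figure D1:**
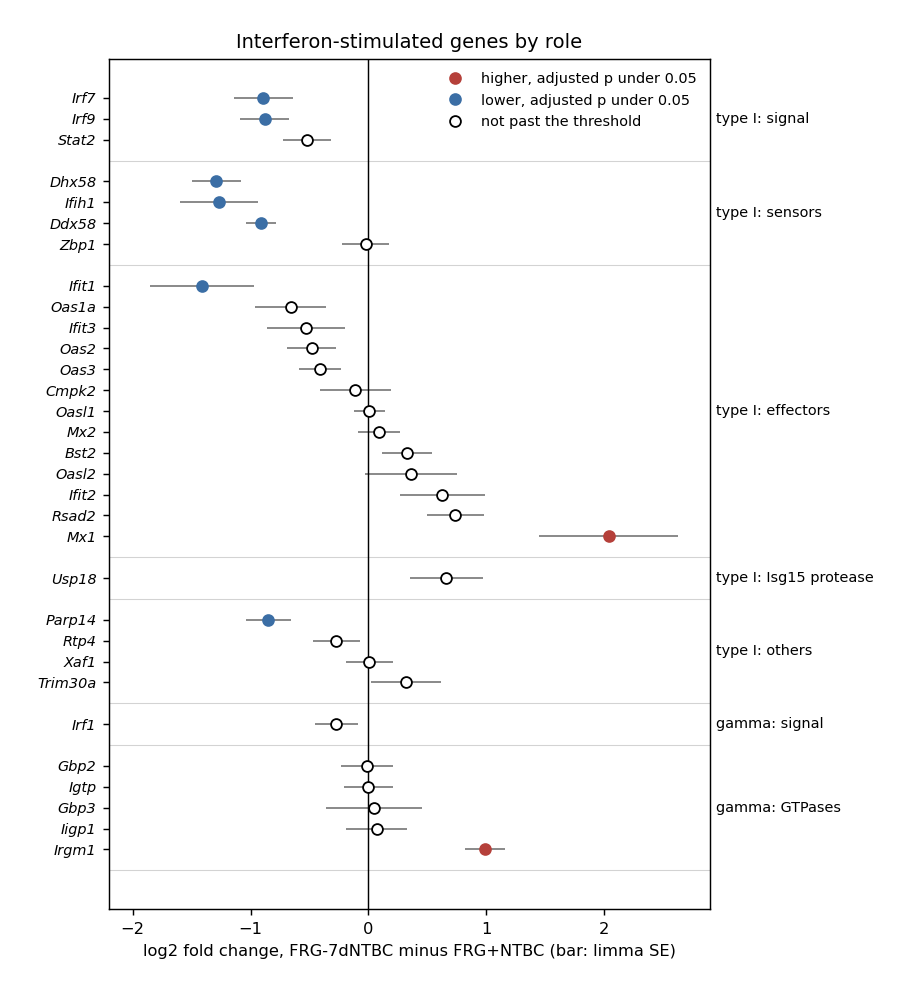
The horizontal axis gives the log2 fold change, with FRG+NTBC subtracted from FRG-7dNTBC, for the 31 measured interferon-stimulated genes by role, with bars of 1 limma SE. Filling marks genes with an adjusted p under 0.05 from limma: 7 are lower (blue), among them 3 of the 4 sensors and 2 of the 3 signal factors, and 2 are higher (red), Mx1 and Irgm1.

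Among the 3 factors that carry the type I signal into the nucleus, Irf9 and Irf7 were lower. Irf9, the DNA-binding subunit of the complex with STAT2, had intensities of 93.7, 85.6 and 79.3 in FRG-7dNTBC livers, against 112, 191 and 184 in FRG+NTBC livers. Every FRG-7dNTBC mouse lay below every FRG+NTBC mouse, and Irf9 fell by 0.88 on the log2 scale (SE 0.21, adjusted p = 0.0172). Irf7, which amplifies the response by driving interferon alpha genes, read 85.6, 52.7 and 100.4 in FRG-7dNTBC livers, against 119, 174 and 139 in FRG+NTBC livers. The groups did not overlap here either, and Irf7 fell by 0.89 (SE 0.25, adjusted p = 0.0321). Stat2 read 117, 127 and 76.1 in FRG-7dNTBC livers, against 141, 154 and 152 in FRG+NTBC livers, without overlap. Its log2 fold change of -0.52 (SE 0.20) did not pass (adjusted p = 0.089), and its other probe set stood at 0.11. Stat2 passed without FRG-7dNTBC replicate 2 (-0.66, adjusted p = 0.045) and with either scaling (0.027 and 0.0344), and stood at -0.29 (adjusted p = 0.169) without FRG-7dNTBC replicate 3. Irf9 and Irf7 both lost the call without FRG+NTBC replicate 2 (adjusted p = 0.0707 and 0.118) and without FRG+NTBC replicate 3 (0.0631 and 0.0795), and leaving out FRG-7dNTBC replicate 1 ended that of Irf7 (0.0658). With the replicate number as a block, Irf7 had an adjusted p of 0.0581. Without moderation Irf9 and Irf7 did not pass (adjusted p = 0.103 and 0.147).

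All 3 receptors of the RIG-I family, which sense RNA in the cytosol, were lower. Ddx58, the gene of RIG-I, read 89.9, 88.0 and 75.1 in FRG-7dNTBC livers, against 159, 172 and 144 in FRG+NTBC livers. The mice of each group lay close together, and Ddx58 fell by 0.91 (SE 0.13, adjusted p = 0.00188), a call that held in all 15 alternatives (adjusted p from 0.000727 to 0.0233). Its promoter, shown above, holds the response element core just behind the start. A further probe set of Ddx58 was lower as well (-1.12, adjusted p = 0.0185), and a dim one stood at -0.38 (adjusted p = 0.12). Dhx58, the gene of LGP2, which tunes the signal of the other receptors, read 29.2, 21.3 and 38.6 in FRG-7dNTBC livers, against 67.2, 68.1 and 76.1 in FRG+NTBC livers. It fell by 1.29 (SE 0.21, adjusted p = 0.00303), without overlap, and its call was lost only without moderation (adjusted p = 0.0502). At the other probe sets of Dhx58 the change was -0.78 and -0.11, but both read below Rag2 in both groups, at 11.5 and 6.34 in FRG-7dNTBC and 19.7 and 6.84 in FRG+NTBC livers, and add no exact value. Ifih1, the gene of MDA5, varied most of the 3 and read 239, 143 and 263 in FRG-7dNTBC livers, against 331, 498 and 771 in FRG+NTBC livers. The groups did not overlap, and Ifih1 fell by 1.27 (SE 0.33, adjusted p = 0.0238). That call was lost without FRG+NTBC replicate 2 (adjusted p = 0.076), FRG+NTBC replicate 3 (0.0675), FRG-7dNTBC replicate 1 (0.054), FRG-7dNTBC replicate 2 (0.0518) or moderation (0.14). Zbp1, a sensor of nucleic acids in the Z form and no relative of the other sensors, stood at -0.02 (SE 0.20, adjusted p = 0.953), with 51.9 ± 11.6 in FRG-7dNTBC and 52.3 ± 8.98 in FRG+NTBC livers (SD, n = 3 each). Over the 4 sensors the median log2 fold change was -1.09, and over the 3 signal factors -0.88.

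The antiviral effectors had no common direction. Of 13 measured, 1 rose and 1 fell (7.69% each, against 17.4% and 12.7% of all genes), and 11 did not pass. The median log2 fold change of 0.01 turned to -0.12 with the arrays scaled to one 75th percentile and to -0.02 after quantile normalization. Ifit1, which binds viral RNA that lacks the methyl mark of the cap, read 33.1, 17.4 and 47.8 in FRG-7dNTBC livers, against 44.3, 109.9 and 105.4 in FRG+NTBC livers. FRG-7dNTBC replicate 3 lay above FRG+NTBC replicate 1, so the groups overlapped, and Ifit1 fell by 1.41 (SE 0.44, adjusted p = 0.0466). It lost the call after quantile normalization (adjusted p = 0.054) and without FRG+NTBC replicate 2 (0.157), FRG+NTBC replicate 3 (0.141), FRG-7dNTBC replicate 1 (0.103), FRG-7dNTBC replicate 2 (0.0999) or moderation (0.194). Its neighbours on chromosome 19, Ifit3 and Ifit2, stood at -0.53 (adjusted p = 0.267) and 0.63 (adjusted p = 0.232), and Ifit2 passed without FRG-7dNTBC replicate 2 (1.05, adjusted p = 0.011). Mean intensity of Ifit2 in FRG+NTBC livers was 18.1, below Rag2.

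Mx1, a GTPase that traps viral ribonucleoproteins, went the other way. It read 187, 29.6 and 130 in FRG-7dNTBC livers, against 18.2, 24.1 and 23.8 in FRG+NTBC livers. The FRG+NTBC mice lay about at the level of Rag2, and 1 FRG-7dNTBC mouse, replicate 2, lay just above them. Mx1 rose by 2.04 on the log2 scale (SE 0.59, adjusted p = 0.0356), which was 2.84 without FRG-7dNTBC replicate 2. The call was lost without FRG+NTBC replicate 1 (adjusted p = 0.111), FRG+NTBC replicate 2 (0.0931), FRG+NTBC replicate 3 (0.0846), FRG-7dNTBC replicate 1 (0.109), FRG-7dNTBC replicate 3 (0.0718) or moderation (0.177). C57Bl/6 mice are known to carry a deletion in Mx1 that leaves no working protein, so the probe set reads the RNA of a broken gene. Mx2, its neighbour on chromosome 16, stood at 0.09 (adjusted p = 0.733).

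Rsad2, the gene of viperin, which makes a chain-terminating nucleotide, read 410, 471 and 501 in FRG-7dNTBC livers, against 184, 329 and 345 in FRG+NTBC livers. No FRG-7dNTBC mouse lay below an FRG+NTBC mouse, but the log2 fold change of 0.74 (SE 0.24) missed the threshold (adjusted p = 0.0538). The other probe sets of Rsad2 were both higher, by 1.12 (adjusted p = 0.0216) and 1.31 (adjusted p = 0.0284), and the mean of all 3 gave 1.06 (adjusted p = 0.00904). At the brightest probe set the adjusted p was 0.0275 with the replicate block and 0.0484 without FRG+NTBC replicate 3, but 0.071 with the arrays scaled to one 75th percentile, 0.104 after quantile normalization and 0.182 without moderation. Without FRG+NTBC replicate 1 the log2 fold change was 0.45 (adjusted p = 0.0724). Cmpk2, a nucleotide kinase gene beside Rsad2 on chromosome 12, stood at -0.11 (adjusted p = 0.811). The oligoadenylate synthetases, which switch on RNase L, lay between -0.66 (Oas1a) and -0.41 (Oas3) with Oas2 at -0.48, and their relatives Oasl1 and Oasl2 at 0.01 and 0.36. None of these 5 passed (adjusted p from 0.124 to 0.952), and without FRG-7dNTBC replicate 3 Oas1a and Oas2 did (adjusted p = 0.0402 and 0.0234, both lower). Oas3 (22.8 in FRG-7dNTBC and 30.4 in FRG+NTBC livers) and Oasl2 (25.7 and 19.1) read near Rag2, so their fold changes are not exact. Bst2, the gene of tetherin, had 586 ± 104.2 in FRG-7dNTBC and 472 ± 124.1 in FRG+NTBC livers (SD, n = 3 each, adjusted p = 0.291).

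Usp18, the protease that removes Isg15 from proteins and holds back the type I receptor, read 99.7, 99.0 and 102 in FRG-7dNTBC livers, against 36.0, 91.8 and 77.7 in FRG+NTBC livers. The FRG-7dNTBC mice were nearly alike and the FRG+NTBC mice were not, and the log2 fold change of 0.66 (SE 0.31) did not pass (adjusted p = 0.161). Parp14, an ADP-ribosyltransferase, had 88.7, 70.0 and 97.0 in FRG-7dNTBC livers, against 119, 174 and 171 in FRG+NTBC livers. Its groups did not overlap, and Parp14 fell by 0.85 (SE 0.19, adjusted p = 0.013). Its other probe set read below Rag2, at 11.1 in FRG-7dNTBC and 18.2 in FRG+NTBC livers. The call on Parp14 was lost without FRG+NTBC replicate 2 (adjusted p = 0.0587), FRG+NTBC replicate 3 (0.0505) or moderation (0.0859). Rtp4 (-0.27), Xaf1 (0.01), a gene linked to cell death, and the ubiquitin ligase gene Trim30a (0.32) did not pass (adjusted p from 0.344 to 0.969). Over all members, 12 genes had several probe sets, and of the 15 further probe sets 2 were higher (Rsad2) and 3 lower (Ddx58, Dhx58 and Parp14). Those of Dhx58 and Parp14 and 1 of Rsad2 in FRG+NTBC livers (15.6) read below Rag2.

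**Figure D2:**
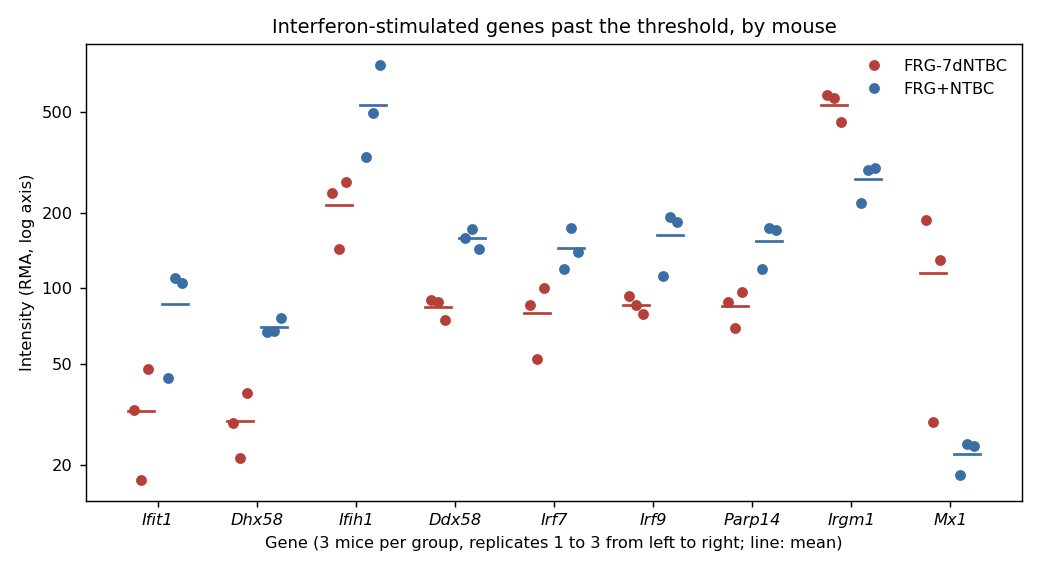
Intensity (log axis) of the 9 interferon-stimulated genes that passed limma at an adjusted p under 0.05, with 1 point per mouse (FRG-7dNTBC in red, FRG+NTBC in blue, replicates 1 to 3 from left to right in each group) and a line at the group mean. The groups overlap for Ifit1, are apart for the others, and FRG-7dNTBC replicate 2 lies close to the FRG+NTBC mice for Mx1.

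Of the members known mainly as interferon gamma targets, Irgm1 rose and the other 5 did not pass. Irgm1, an immunity-related GTPase that acts on autophagy and on the membranes around engulfed microbes, read 584, 568 and 455 in FRG-7dNTBC livers, against 218, 296 and 300.2 in FRG+NTBC livers. All FRG-7dNTBC mice lay far above all FRG+NTBC mice, and Irgm1 rose by 0.99 (SE 0.17, adjusted p = 0.00404), a call that held in all 15 alternatives (adjusted p from 0.000975 to 0.0469). Its relative Igtp read 399, 254 and 239 in FRG-7dNTBC livers, against 251, 290.0 and 331 in FRG+NTBC livers, and stood at 0.00 (SE 0.21, adjusted p = 0.992). Iigp1, another GTPase of this family, read 5113, 5113 and 6562 in FRG-7dNTBC livers, against 3444, 6700 and 6383 in FRG+NTBC livers. The groups overlapped for both genes, and Iigp1 stood at 0.07 (SE 0.26, adjusted p = 0.86).

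The guanylate-binding proteins are large GTPases of the same defence. Gbp2 read 44.9, 30.1 and 49.5 in FRG-7dNTBC livers, against 32.9, 47.5 and 44.0 in FRG+NTBC livers (log2 fold change -0.01, SE 0.22, adjusted p = 0.971). Gbp3 read 53.8, 23.6 and 84.5 in FRG-7dNTBC livers, against 38.3, 53.8 and 47.2 in FRG+NTBC livers (0.05, SE 0.41, adjusted p = 0.945). For Gbp3 the FRG-7dNTBC mice alone covered more than the whole range of the FRG+NTBC mice. Irf1, the transcription factor that relays the gamma signal, had 468, 357 and 300.2 in FRG-7dNTBC livers, against 508.5, 413 and 419 in FRG+NTBC livers, with overlap, and stood at -0.27 (SE 0.18, adjusted p = 0.318), or at -0.40 and -0.45 with the arrays scaled to one 75th percentile and after quantile normalization (adjusted p = 0.123 and 0.124). Counted by class, 1 of 6 gamma-type members rose (16.7%) and 5 did not pass, with a median log2 fold change of 0.03. Among the 25 type I-type members 1 rose (4.0%) and 7 fell (28.0%), with a median of -0.27. The shares over all genes were 17.4% higher and 12.7% lower. Whether the classes differ was not tested, and of the type I-type calls only those of Ddx58 and Dhx58 held with each mouse left out in turn.

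Mice of the same group differed more in the median member than in the median gene. The median within-group SD on the log2 scale was 0.32 over the 31 members and 0.19 over all genes, or 0.32 and 0.21 for the 28 members and 11976 genes with a mean log2 value of at least 5. The differences ran through the set. FRG-7dNTBC replicate 2 was the lowest of its group in 20 of 31 members (64.5%), against 36.8% of all genes, and lay 0.49 below the mean of the other FRG-7dNTBC mice in the median member. FRG+NTBC replicate 1 was the lowest of its group in 24 of 31 (77.4%), against 34.1% of all genes, and lay 0.42 below the other FRG+NTBC mice in the median member. Over all genes these medians were -0.01 and 0.02. Mx1, Gbp3, Oasl2, Ifit1 and Ifit2 are examples with a low FRG-7dNTBC mouse, and Ifit1, Usp18, Ifih1 and Iigp1 with a low FRG+NTBC mouse. The low FRG-7dNTBC mouse read below Rag2 for Oasl2 (12.7), Ifit1 (17.4) and Ifit2 (15.3), so its distance there is not exact. The same mice had the lowest summed Kupffer cell and macrophage markers of their groups (2258 and 1794), and the part of these cells in the spread was not tested. Without FRG-7dNTBC replicate 2, 3 members were higher and 6 lower, and without FRG+NTBC replicate 1, 1 was higher and 7 lower. Of all genes, 16.3% were higher and 10.5% lower in the first setting, and 14.3% and 9.64% in the second.

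**Figure D3:**
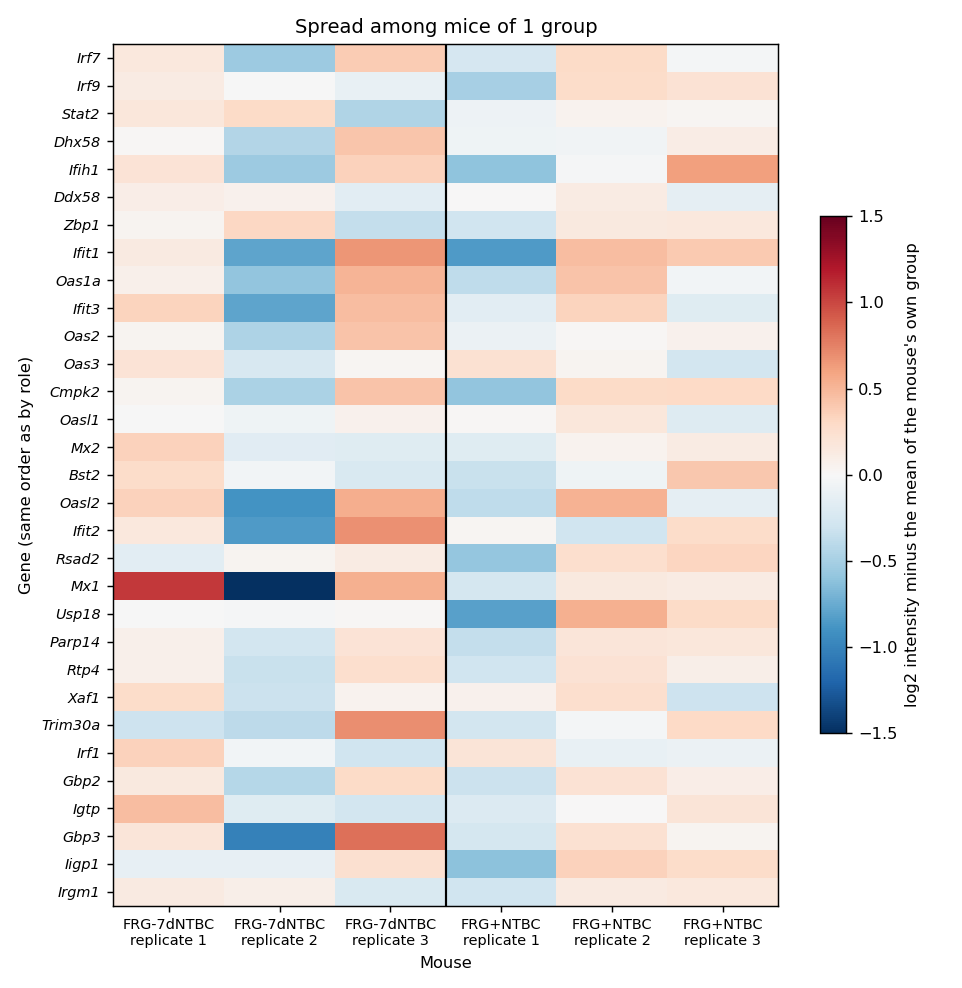
Log2 intensity of each of the 31 interferon-stimulated genes (vertical axis, in the order of roles) in each mouse (horizontal axis), minus the mean of the mouse's own group, in colour from blue (below) to red (above). FRG-7dNTBC replicate 2 is the lowest of its group in 20 genes and FRG+NTBC replicate 1 in 24.

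Genes that make, sense and pass on the signal were counted over 7 further lists with 104 measured entries. Socs1, which did not pass, stood in both the inhibitors and the gamma targets and was counted in each. Of these, 14 (13.5%) were higher and 13 (12.5%) lower, which is near the 17.4% and 12.7% of all genes, and the median log2 fold change was -0.12. The split was 7 higher and 20 lower with the arrays scaled to one 75th percentile, where 14.7% of all genes were higher and 19.6% lower, and 7 higher and 17 lower after quantile normalization, where 15.5% and 14.3% were. Of the 27 genes that passed, Il18, Ifngr1, Mavs, Ikbke, Gbp7, Dtx3l and Plscr1 held in all alternatives that could be run, and 18 of the other 20 lost the call without at least 1 of the mice. The 14 higher calls became 8 without FRG+NTBC replicate 1, 4 without FRG+NTBC replicate 2 and 5 when FRG-7dNTBC replicate 1 was left out. Of all genes, 14.3%, 12.3% and 13.1% were higher there. The 13 lower calls became 6 without FRG+NTBC replicate 2 and 8 when FRG-7dNTBC replicate 2 was left out, where 8.11% and 10.5% of all genes were lower. Of the interferon genes, Ifna1 read 38.8 ± 5.49 in FRG-7dNTBC and 38.5 ± 6.29 in FRG+NTBC livers, and Ifna2 42.7 ± 4.74 in FRG-7dNTBC and 44.6 ± 4.26 in FRG+NTBC livers (SD, n = 3 each), and neither passed (adjusted p = 0.951 and 0.771). Both lay not far above the array medians. Ifna4, Ifna5 and Ifna11 read below Rag2, at 10.9, 13.4 and 8.34 in FRG-7dNTBC and 11.9, 17.0 and 9.36 in FRG+NTBC livers. None of them passed (log2 fold change -0.12, -0.35 and -0.15), although Ifna5 did not overlap, and at this level they cannot show a change. Ifnb1 had 20.9 in FRG-7dNTBC and 23.0 in FRG+NTBC livers (log2 fold change -0.13, adjusted p = 0.602) and Ifng 7.20 in FRG-7dNTBC and 8.21 in FRG+NTBC livers (-0.18, adjusted p = 0.355), near or below the level of Rag2, so these values cannot show whether either changed. Among 10 measured ligands and cytokines that induce them, 1 (10.0%) fell, against 12.7% of all genes, and 9 did not pass. The gene that fell was Il18, which drives interferon gamma production in lymphocytes. It read 104, 77.7 and 103 in FRG-7dNTBC livers, against 449, 369.6 and 372 in FRG+NTBC livers, and fell by 2.07 (SE 0.16, adjusted p = 0.000126).

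Of the receptors, 3 of 6 were higher, where 17.4% of all genes were, with a median of 0.70. The count was 2 of 6 at the 75th percentile and 1 of 6 after quantile normalization, and over the mean of each gene's probe sets it was 2 of 6 with a median of 0.27, Il10rb standing at 0.30 there (adjusted p = 0.197). Ifngr1, the ligand-binding chain for interferon gamma, read 282, 276 and 338 in FRG-7dNTBC livers, against 144, 172 and 193 in FRG+NTBC livers, and rose by 0.82 (SE 0.15, adjusted p = 0.00564). Ifngr2 rose by 0.98 (adjusted p = 0.0458) and Il10rb, which also serves interferon lambda, by 0.80 (adjusted p = 0.0366). Both calls ended when FRG+NTBC replicate 2 (adjusted p = 0.0908 and 0.128) or FRG-7dNTBC replicate 1 (0.11 and 0.124) was left out. Replicate 1 of FRG+NTBC (0.114) and replicate 2 of FRG-7dNTBC (0.11) decided Ifngr2 as well, and replicate 3 of FRG+NTBC (0.0979) and of FRG-7dNTBC (0.0615) decided Il10rb. Ifnar1 of the type I receptor stood at 0.31 (adjusted p = 0.112), without overlap, but at -0.32 over the mean of its probe sets. Of 8 kinases, STATs and IRFs below the receptors, the kinase gene Jak1 (1.52, adjusted p = 0.00283) and Stat3 (0.49) were higher. Tyk2 (-0.47) and Irf2 (-1.21), a rival of Irf1, were lower. That is 25.0% each way, against 17.4% higher and 12.7% lower over all genes. Over the mean of its probe sets Stat3 turned to -0.15. Irf3, which Mavs activates, stood at -0.22 (adjusted p = 0.277).

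Among 12 genes of innate sensing, mostly of nucleic acids but with Tlr4 among them, Mavs and Ikbke fell and Tbk1 rose. That is 16.7% lower and 8.33% higher, against 12.7% and 17.4% of all genes. Mavs, the mitochondrial adaptor through which RIG-I and MDA5 signal, read 202, 236 and 234 in FRG-7dNTBC livers, against 644, 724 and 680.3 in FRG+NTBC livers. It fell by 1.61 (SE 0.13, adjusted p = 0.000129). Ikbke, a kinase that acts on Irf3 and Irf7, read 55.7, 50.9 and 59.7 in FRG-7dNTBC livers, against 154, 152 and 168 in FRG+NTBC livers, and fell by 1.51 (SE 0.12, adjusted p = 0.000152). Both lay far apart in the groups, as Ddx58 did, while Tbk1, the partner kinase of Ikbke, stood at 0.59 (adjusted p = 0.0197), a call lost with either scaling. Of 11 inhibitors of the pathway Ptpn11 (0.50) and Pias1 (0.50) were higher (18.2%, against 17.4% of all genes) and 9 did not pass. Neither call held with either scaling.

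Of 33 more type I targets 4 (12.1%) were higher and 6 (18.2%) lower (median -0.22), against 17.4% and 12.7% of all genes. The split was 2 higher and 10 lower with the arrays scaled to one 75th percentile, 3 and 9 after quantile normalization, and 1 and 2 without FRG+NTBC replicate 2. Among them Plscr1, a lipid scramblase, rose by 1.34 (adjusted p = 0.00138), Ifitm3, which blocks virus entry, fell by 1.45 (adjusted p = 0.0479), Ly6e by 1.60 (adjusted p = 0.0269), the ubiquitin ligase Rnf213 by 0.85 (adjusted p = 0.0094) and Dtx3l, another ligase, by 0.79 (adjusted p = 0.00519). Lgals3bp (1.26, adjusted p = 0.0492) was higher as well. That call was lost after quantile normalization, without moderation, with the replicate block, and when any mouse but FRG-7dNTBC replicate 3 was left out. Of 24 more gamma targets 2 (8.33%) were higher and 2 (8.33%) lower (median -0.10), both below the shares of all genes. The higher ones were the proteasome activator Psme1 (0.86) and the checkpoint ligand Cd274 (0.71). The lower ones were Gbp7 (-1.23, adjusted p = 0.00306) and Nlrc5 (-0.82), which drives MHC class I genes. Ifitm3 and Ly6e were lowest in FRG-7dNTBC replicate 2, at 495 and 114. The calls of Ifitm3 and Ly6e were lost with the replicate block, and without FRG+NTBC replicate 2 or FRG+NTBC replicate 3, that of Ifitm3 also without FRG+NTBC replicate 1 and that of Ly6e also without FRG-7dNTBC replicate 2.

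**Figure D4:**
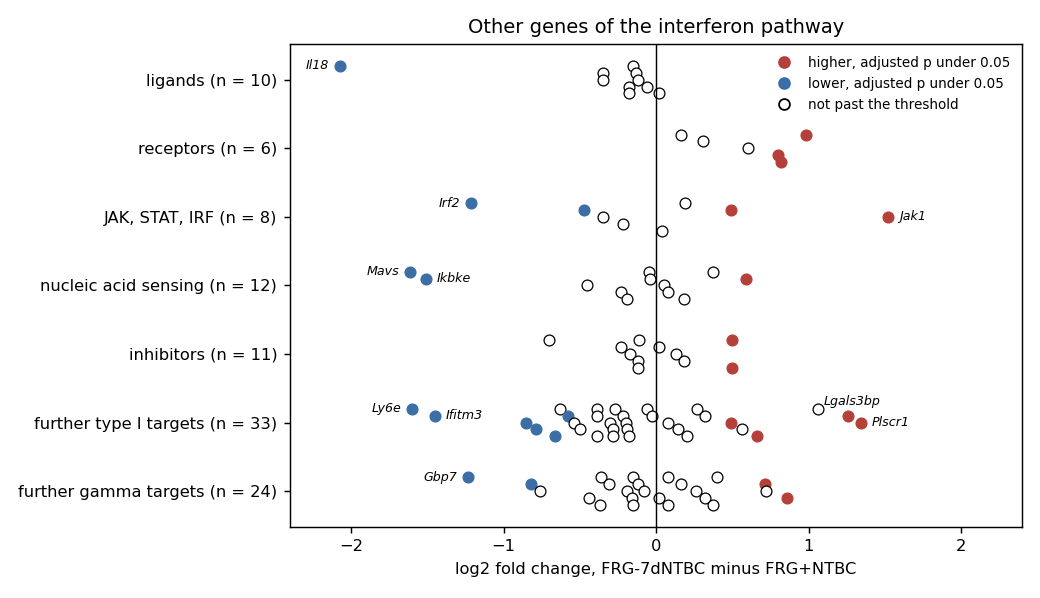
The horizontal axis gives the log2 fold change, with FRG+NTBC subtracted from FRG-7dNTBC, for 104 further entries of interferon pathway genes in 7 lists. Each entry has 1 point, its height within a line spread only for legibility, and Socs1 stands in both the inhibitors and the gamma targets. Filling marks genes with an adjusted p under 0.05 from limma: 14 are higher (red), among them 3 of 6 receptors, and 13 are lower (blue), with Il18, Mavs and Ly6e farthest to the left.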

How the data were processed

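Total RNA of 6 livers, 3 per group and 1 array per mouse, had been hybridised to Affymetrix mouse genome arrays. The authors made the deposited intensity values by Robust Multiarray Analysis, and Transcriptome Analysis Console is the tool in the submitters' processing notes. The values are on a linear scale, and log2 was taken here. Probe sets were named through the platform annotation, and all 31 measured members matched a mouse RefSeq gene by identifier. The comparison used limma 3.58.1 under R 4.3.3 (lmFit, eBayes, no covariates) over 45037 probe sets with Benjamini-Hochberg adjustment, after a check on simulated data, and the number of arrays limits the precision.

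Members, lists and tests were chosen with earlier results of these data known. Mouse by mouse values were given for members past an adjusted p of 0.05, the gamma-type members, Irf7, Stat2 and Irf9, and pathway genes were named where they passed, up to 6 per list. Ifnb1, Ifng, Ifnar1, Ifngr1 and Irf3 were named whatever their value. Rsad2, Usp18, Ifna1, Ifna2, Ifna4, Ifna5, Ifna11, Tat and the values by mouse of Il18, Ifngr1, Mavs and Ikbke were added after their values were seen. The alternatives changed the scale (one 75th percentile per array, or quantile normalization), the spread model (a robust trend, no moderation, or weights for arrays), or the input: leaving out probe sets with a mean log2 under 5, leaving out _s_at and _x_at probe sets, the mean of a gene's probe sets, the replicate number as a block, and leaving out each mouse. Expression of Isg15 and Ifi44 was not analysed here, since no probe set named them alone. The blood, histology and RT-qPCR data of the study were not used here.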

Additional observations from a re-analysis of the deposited data

How the results depend on the processing

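The set's calls were limited by the number of mice. Over the alternatives of all members, 382 results kept their direction and side of the threshold, 29 lost the call, 11 gained it and 40 changed sign. Ddx58 and Irgm1 held throughout. Without moderation 1 member was higher and 1 lower (9.15% and 7.49% of all genes), and 3 pathway genes were higher and 6 lower. Leaving out 1 mouse gave 1 to 3 members higher and 2 to 9 lower, and 4 to 14 pathway genes higher and 6 to 13 lower. Scaling to one 75th percentile shifted all probe sets by -0.13 in the median and quantile normalization by 0.0736; 14.7% of all genes were then higher and 19.6% lower at the 75th percentile, where 7 pathway genes were higher and 20 lower, and 7 were higher after quantile normalization. The cause of the other changes was not tested.

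Mice with the same replicate number had a correlation of deviations of 0.106, 0.0339 and -0.156 for numbers 1 to 3. Such values over all probe sets cannot show whether mice with the same number share anything more, and the labels name no pairing. With the replicate block 3 members were higher and 6 lower, Rsad2 passing and Irf7 not, and 12 pathway genes were higher and 9 lower. Of all genes, 16.7% were higher and 10.8% lower with this block.

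The members that changed sign did not pass the threshold in either direction. At the 75th percentile Oasl1 and Xaf1 stood at -0.12, Mx2 at -0.04, Gbp3 at -0.08, Igtp at -0.13 and Iigp1 at -0.06. After quantile normalization Zbp1 stood at 0.03, Oasl1 at -0.02, Xaf1 at -0.05, Gbp2 at 0.07, Igtp at -0.17 and Iigp1 at -0.04. Array weights gave -0.02 for Oasl1 and -0.12 for Iigp1, leaving out probe sets of several transcripts gave 0.03 for Gbp2 and -0.13 for the pathway gene Tor3a, and the mean of probe sets gave -0.01 for Xaf1, 0.01 for Gbp2, -0.32 for Ifnar1, -0.15 for Stat3 and -0.06 for Ptpn11, of which Tor3a, Stat3 and Ptpn11 had been higher. With 1 mouse left out, the range was -0.17 to 0.16 for Zbp1, -0.08 to 0.10 for Oasl1, -0.08 to 0.18 for Mx2, -0.41 to 0.12 for Cmpk2, -0.14 to 0.18 for Xaf1, -0.03 to 0.51 for Trim30a, -0.17 to 0.20 for Gbp2, -0.37 to 0.55 for Gbp3, -0.23 to 0.14 for Igtp, -0.24 to 0.24 for Iigp1 and -0.23 to 0.02 for Ifnb1.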
